A study of Mus musculus with 2 samples.

Results

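The genes described here make cholesterol, carry it into, within and out of cells, and turn it into steroids. They were taken from a list of 32 genes, and a probe set (a group of array probes for 1 transcript) was a member when the platform annotation gave it exactly 1 gene symbol and that symbol was on the list. This gave 55 of the 22690 probe sets, for 29 of the 32 genes and of the 12393 genes with a symbol of their own. Acat2, Insig1 and Soat1 had no such probe set and were not analysed here. The RNA came from uterine stromal cells, the connective tissue cells under the uterine epithelium, taken from mice on day 5 of pregnancy, counted from the vaginal plug as day 1, and separated by digesting the uterine horns with enzymes. Cells of 3 animals per genotype were pooled, and each pool was measured on 1 Affymetrix mouse expression array.

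The control pool is labelled as Hif1 flox in its title and as Hif2 alpha-intact in its genotype field. The other pool is labelled Hif1 cKO and Hif2 alpha-null, and it is called knockout-labelled here. Its breeding note describes Hif1 floxed mice crossed with PRcre mice, in which Cre recombinase is made in cells with the progesterone receptor, and gives Rac1 as the gene to be removed from the uterus, so the 3 labels do not name the same target. Whether the controls carried PRcre, and the strain and age of the mice, were not stated in the labels. The array signals do not settle the target. At their brightest probe sets Epas1, which encodes Hif2 alpha, had signals of 59.4 on the control and 78.1 on the knockout-labelled array, Hif1a had 721 and 1544, and Rac1 had 1038 and 757, and where these probes lie relative to the removed exons was not analysed here.

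Cholesterol is built from acetyl-CoA through mevalonate and short isoprenoids to squalene, which is closed to the first sterol, lanosterol, and then trimmed and desaturated. The transcription factors SREBP1 and SREBP2 raise the genes of this pathway when membrane sterol is low, because their escort SCAP then carries them out of the endoplasmic reticulum, where INSIG proteins otherwise hold them. Cells also take up cholesterol from lipoproteins and pass it out again through ABC transporters to apolipoproteins, and steroid-making cells bring it to the mitochondrion to be cut to pregnenolone. In the pregnant mouse the ovary supplies the progesterone to which the uterine stroma responds.

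Promoter sequences are shown for 4 enzymes, to show where known promoter boxes lie in enzymes with higher and with lower signals on the knockout-labelled array. RefSeq start-site windows of 300 bases, from 250 bases before to 50 after a start in GRCm38.p6, matched 25 of the 32 genes, of which 15 were synthesis enzymes. The synthesis enzymes Fdps, Fdft1 and Sqle had no window. The lines below give the 200 bases before the start, 5′ to 3′ on the strand of the gene. Capitals mark matches on either strand to CCAAT, the box bound by the factor NF-Y, and to TCACNCCAC, a consensus of the sterol regulatory element that SREBPs bind. Hmgcs1 and Idi1 had higher signals on the knockout-labelled array, and Ebp and Sc5d had lower ones. The windows are chr13:119690151-119690350 on the plus strand for Hmgcs1, chr13:8885406-8885605 on the plus strand for Idi1, chrX:8193513-8193712 on the minus strand for Ebp and chr9:42264301-42264500 on the minus strand for Sc5d.
Hmgcs1: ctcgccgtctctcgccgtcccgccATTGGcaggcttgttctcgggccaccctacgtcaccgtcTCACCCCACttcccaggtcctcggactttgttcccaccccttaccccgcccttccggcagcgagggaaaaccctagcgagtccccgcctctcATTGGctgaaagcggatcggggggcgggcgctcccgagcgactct
Idi1: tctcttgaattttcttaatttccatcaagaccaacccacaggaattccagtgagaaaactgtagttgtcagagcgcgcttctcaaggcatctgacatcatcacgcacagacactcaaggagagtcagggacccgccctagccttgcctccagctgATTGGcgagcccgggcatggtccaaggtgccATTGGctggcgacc
Ebp: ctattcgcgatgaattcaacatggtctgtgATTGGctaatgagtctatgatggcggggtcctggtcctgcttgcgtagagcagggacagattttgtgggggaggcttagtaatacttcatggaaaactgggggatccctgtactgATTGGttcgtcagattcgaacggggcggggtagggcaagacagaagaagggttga
Sc5d: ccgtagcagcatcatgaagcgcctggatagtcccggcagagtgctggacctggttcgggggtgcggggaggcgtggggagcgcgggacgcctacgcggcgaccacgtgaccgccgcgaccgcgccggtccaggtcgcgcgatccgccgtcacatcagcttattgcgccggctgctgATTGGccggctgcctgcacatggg

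CCAAT was found in the windows of 14 of the 15 synthesis enzymes, or 93.3%, all but Acat2, where 41.1% of all 27025 genes had it. The GC box GGGCGG, read by Sp1, was also in 14 of 15, all but Pmvk, where 38.2% of all genes had it. The E-box CANNTG was in 11 of 15, or 73.3%, where 75.0% of all genes had it. The TCACNCCAC consensus was in 1 of the 15, Hmgcs1, starting 137 bases before the start site, where 1.44% of all genes had it. Both strands were searched for every motif, and a match is a run of letters and not a shown site. No mismatch to the given letters was allowed, so a gene without a match is not shown to lack the box.

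Of the 29 measured genes, 27 had a signal above a floor of 19.7 on at least 1 array and were compared, and Hsd17b7 and Cyp11a1 lay below it on both. The floor is the 40th percentile of all signals, and signals under it were set to it, so a gene under it on 1 array has only a bound. Per gene, the probe set of highest mean signal was used. Of the 27 genes, 4 had a knockout-labelled signal lower by 2-fold or more, namely Apoe, Ebp, Fdps and Sc5d, and 2 one higher by as much, namely Hmgcs1 and Fdft1. This is 14.8% lower and 7.41% higher, where 13.0% of all 8593 compared genes were lower and 6.21% higher, so the shares past 2-fold were near those of all genes. The median log2 ratio (knockout-labelled minus control) was -0.02 over the members and -0.10 over all genes. Under quantile normalization, median centring and removal of the trend with signal, the members' median turned positive, to 0.09, 0.14 and 0.02. The median of all genes rose as well, to 0.03, 0.16 and -0.01.

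Each group has 1 array, so no replicate error and no test can be had, and these are values of 2 pools and not of the genotypes. In such tissue pools fewer cells of a type and less RNA per cell cannot be told apart. Error could be gauged only from how far the 2 brightest probe sets of a gene differed, an SD of 0.64 per log2 ratio over 2660 genes, which leaves out the spread between animals and arrays. Both arrays had a trimmed mean signal of 150.1, which scaling can set beforehand, so it says nothing about error. The median signal was 41.8 on the control and 34.4 on the knockout-labelled array. The 3' to 5' signal ratio compares control probe sets toward the 2 ends of the same transcript. For b-actin it was 2.27 for the control and 16.0 for the knockout-labelled pool, and the Gapdh ratio was 1.49 and 7.25. The 3' signals of b-actin were 5720 and 9070 and its 5' signals 2530 and 565. The ratio was 0.449 and 1.29 for 18S RNA, and 8.18 and 9.08 for pyruvate carboxylase, whose 5' signals were under the floor. The transferrin receptor (4.31 and 13.9) had all its signals under the floor. The difference in these ratios and the genotype cannot be told apart with 1 array each. Where the members' probe sets lie along their transcripts was not analysed. The part of this difference in the member values was therefore not tested, including the low values of Apoe, Ebp, Fdps and Sc5d and the split of Fdft1. Genes in the dimmest of 5 equal groups by signal had a median log2 ratio of -0.24 and those in the brightest 0.31.

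**Figure D1:**
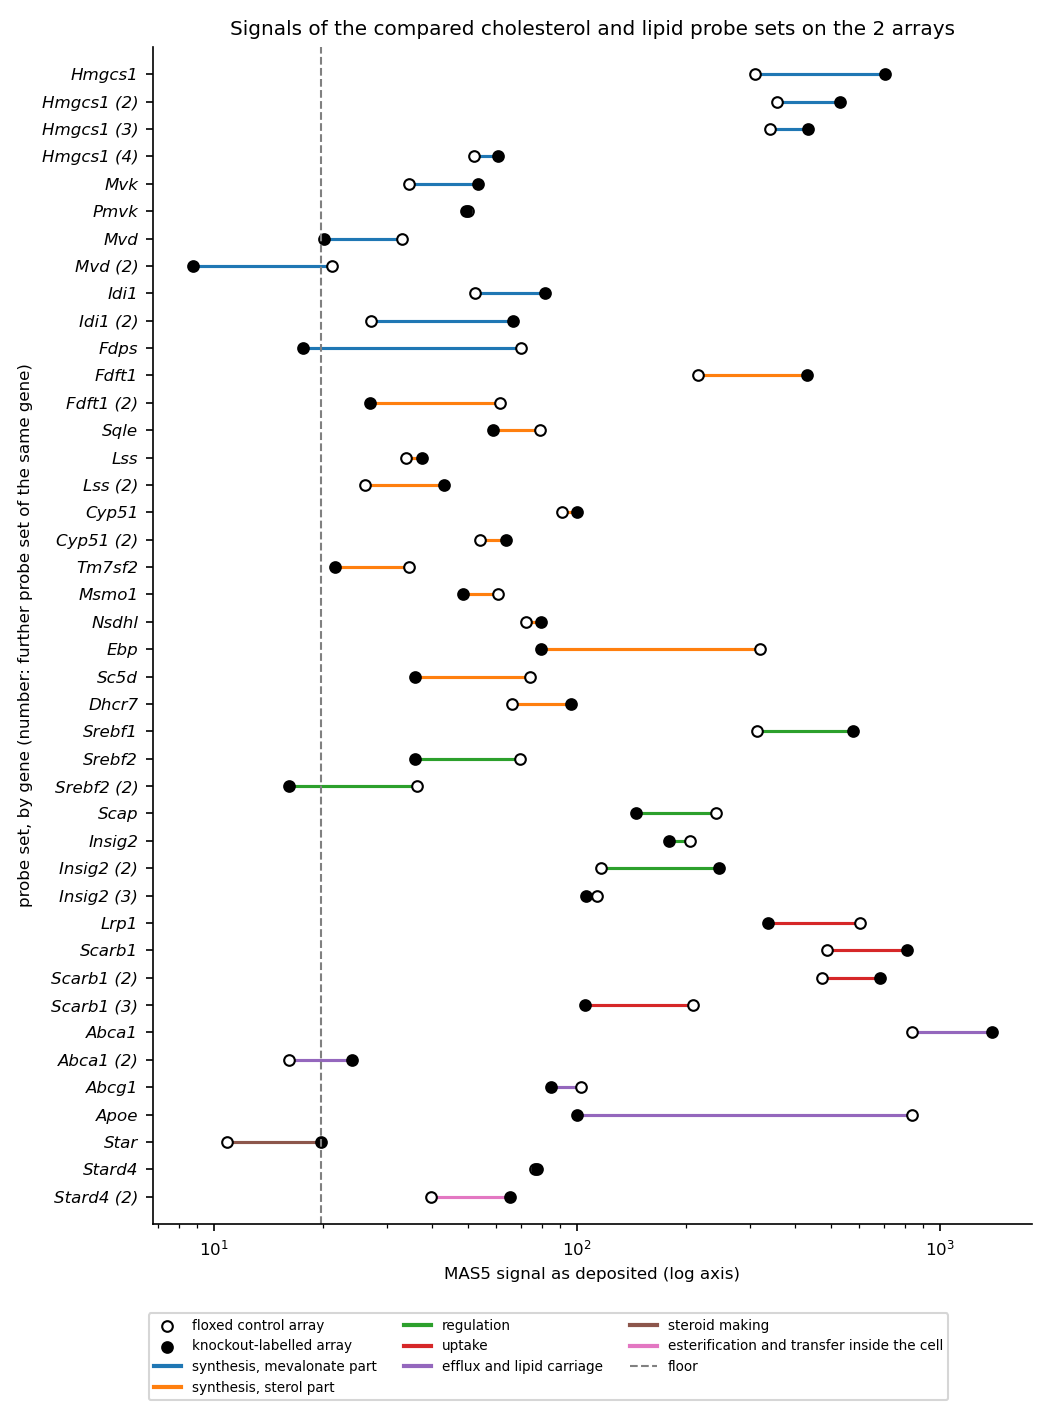
MAS5 signal as deposited (log axis) of the 42 compared member probe sets, 1 row each, with an open circle for the floxed control array and a filled circle for the knockout-labelled array, lines coloured by role and a dashed line at the floor of 19.7. The longest line belongs to Apoe, from 836.7 to 100.0, and lines of the synthesis enzymes run in both directions.

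The mevalonate part of the pathway went both ways. Hmgcs1, the synthase that makes HMG-CoA, gave 310.5 on the control and 706.9 on the knockout-labelled array where its signal was brightest (log2 ratio 1.19). Its other 3 probe sets had 356.1 and 531.9, 341.6 and 434.7, and 51.9 and 60.7, which are log2 ratios of 0.58, 0.35 and 0.22. All 4 were thus higher on the knockout-labelled array, and only the brightest was past 2-fold. Idi1, which interconverts the isoprenoid building blocks, was also higher at both probe sets, with 52.4 and 81.7 at the brighter (0.64) and 27.1 and 66.9 at the other (1.30).

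The remaining enzymes up to farnesyl diphosphate had signals of at most 70.3 on either array. Mvk, mevalonate kinase, had 34.5 and 53.3 (0.63), with a further probe set under the floor on both arrays. Pmvk, the kinase that follows it, had 50.1 and 49.4, a log2 ratio of -0.02. Mvd, the decarboxylase of this branch, had 32.9 and 20.2 (-0.71), and its other probe set had 21.1 and 8.75, lower too but a bound. Fdps, which joins the building blocks to farnesyl diphosphate, had 70.3 and 17.6, the latter under the floor, and was at least 3.56-fold lower. Its other probe set read 1.06 and 2.70, under the floor, so Fdps rests on 1 probe set. Of the 6 mevalonate genes compared, 3 were higher and 3 lower by any amount, and 1 was past 2-fold in each direction.

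Among the enzymes from squalene onward the lowest ratio was that of Ebp, the sterol isomerase. Ebp had a signal of 319.8 on the control and 79.8 on the knockout-labelled array, 4.01-fold lower, at its only probe set. Sc5d, a sterol desaturase acting after Ebp, had 74.2 and 35.9 (2.07-fold lower), and its other probe set read 4.72 and 3.50, under the floor. Dhcr7, the reductase acting after Sc5d, went the other way, with 66.4 and 96.4 (0.54). The adjoining steps of Ebp, Sc5d and Dhcr7 therefore did not share a direction, although Dhcr7 differed by less than the SD between probe sets.

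Fdft1, squalene synthase, had no settled direction. Its brightest probe set had 215.2 and 431.4 (log2 ratio 1.00) and the next 61.3 and 27.0 (-1.18), past 2-fold in opposite directions. Only 14 of the 2660 genes with 2 measured probe sets, or 0.526%, did this. Its remaining 2 probe sets were under the floor on both arrays. The brightest has a name ending in _x_at, which Affymetrix gives to probe sets with some probes that can also match other sequences.

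The remaining sterol enzymes differed by about the SD between probe sets or less. Sqle, the epoxidase of squalene, had 79.2 and 58.7 (-0.43). Lss, which closes the ring to lanosterol, had 33.8 and 37.4 (0.15), with 26.03 and 43.0 (0.72) at its other measured probe set. Cyp51, the lanosterol demethylase, had 90.8 and 100.3 (0.14), with 54.1 and 63.8 (0.24) at the next. Lss and Cyp51 were therefore slightly higher at every measured probe set. Tm7sf2, a sterol reductase, had 34.6 and 21.6 (-0.68). Msmo1, which oxidises the methyl groups, had 60.5 and 48.5 (-0.32), and Nsdhl, the dehydrogenase that follows it, had 72.4 and 79.8 (0.14). Hsd17b7, the ketosterol reductase, read 10.3 and 6.39 at 1 probe set and 16.6 and 15.7 at the other, all under the floor.

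Over the whole pathway, 16 synthesis enzymes were compared, of which 8 were higher and 8 lower by any amount. Past 2-fold were 2 higher (12.5%, where 6.21% of all genes were) and 3 lower (18.8%, where 13.0% were). Their median log2 ratio was 0.06, where genes of the same signal groups had a mean of group medians of -0.23. That median lay between -0.05 and 0.34 over 8 alternative settings. The median of all genes lay between -0.20, without probe sets ending in _s_at, _x_at or _a_at, and 0.16, after median centring. It did not always move the same way. With the floor at the 25th percentile the enzymes' median fell to -0.02 and that of all genes rose from -0.10 to -0.06. In the plot of log2 ratios by gene, enzymes of the mevalonate part and of the sterol part lie on both sides of 0.

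**Figure D2:**
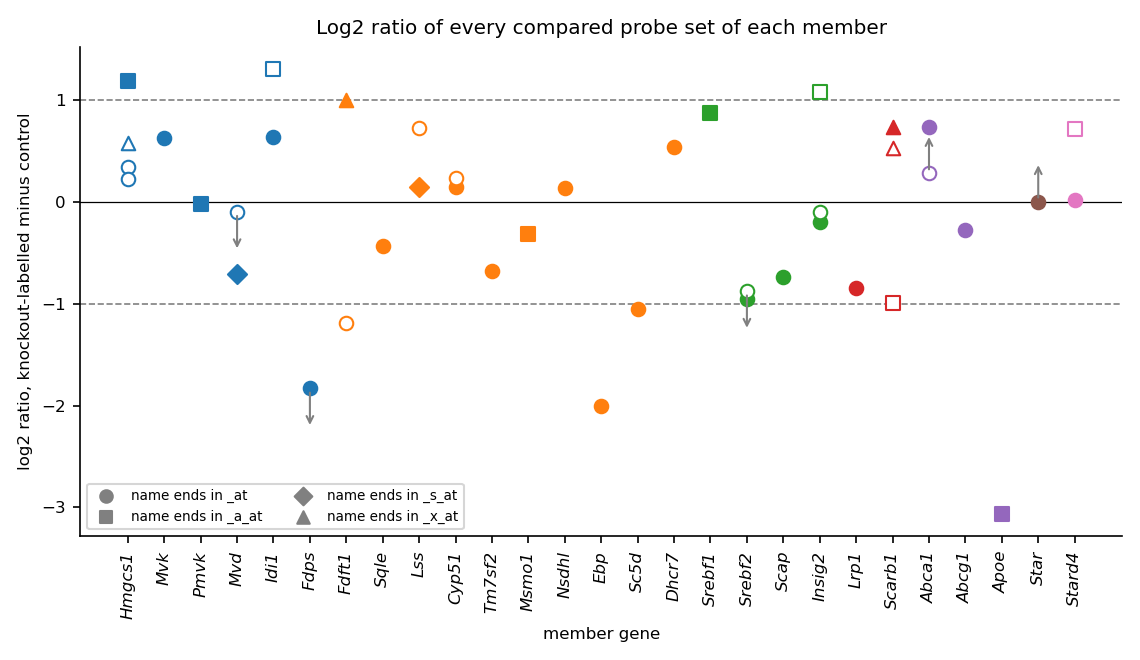
Log2 ratio (knockout-labelled minus control) of the 42 compared probe sets by member gene, with filled symbols for the brightest probe set, open symbols for further ones, symbol shape for the ending of the probe set name, colours of the roles as in the plot of signals, arrows for bounds and dashed lines at 2-fold. Fdft1 lies past both lines, Insig2 and Scarb1 lie on both sides of 0, and Hmgcs1 is above 0 at all 4 probe sets.

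The regulators of the pathway also differed among themselves. Srebf1, which encodes the SREBP1 factors of fatty acid and sterol genes, had 314.5 and 577.6 (0.88) at its only probe set. Srebf2, which encodes the sterol regulator SREBP2, had 69.7 and 35.9 (-0.96), and 36.3 and 16.1 at the other, where it was at least 1.84-fold lower. Scap, the escort of both, had 241.4 and 145.1 (-0.73). Srebf2 and Scap were lower and Srebf1 higher, and none of them was past 2-fold. Insig2, a retention protein of the endoplasmic reticulum, had 205.2 and 178.9 (-0.20) and 113.4 and 106.1 (-0.10) at 2 probe sets, but 116.2 and 245.9 (1.08) at its remaining one, so its direction was not settled.

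The genes of uptake gave no common direction. Lrp1, a large receptor that takes up lipoprotein remnants and many other ligands, had 603.1 and 336.2 (-0.84) at its only probe set. Scarb1, the receptor for high-density lipoprotein, had 487.4 and 813.3 (0.74) and 473.3 and 683.4 (0.53) at 2 probe sets ending in _x_at, and 208.3 and 105.0 (-0.99) at the one ending in _a_at. Scarb1 thus changed sign with the probe set. An ending of _a_at marks, in Affymetrix naming, probes shared by several transcripts of a gene.

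Apoe, the apolipoprotein that carries cholesterol away from cells, had the lowest ratio of all members. Its signal was 836.7 on the control and 100.0 on the knockout-labelled array at its only probe set, which ends in _a_at, and was thus 8.37-fold lower (log2 ratio -3.06). Abca1, the transporter that loads cholesterol onto apolipoproteins, lay the other way, with 835.7 and 1393 (0.74) at its brightest probe set. A dim probe set of Abca1 read 16.1 and 24.0, at least 1.21-fold higher, and its last one was under the floor. Abcg1, a transporter to high-density lipoprotein, had 102.5 and 84.6 (-0.28). Of the efflux genes, 1 was therefore past 2-fold and 2 were within it.

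Apoe is also made in quantity by macrophages, and markers of myeloid cells, a wider group, differed in both directions between the same arrays. Among 20 myeloid markers, 6 were lower by 2-fold or more (30.0%, where 13.0% of all genes were). Another 2 were higher by as much (10.0%, where 6.21% were). By any amount 10 were higher and 10 lower, and their summed signal was 6929 on the control and 7171 on the knockout-labelled array. Lower were Fcer1g (463.6 and 60.8), C1qa (455.8 and 68.5), Aif1, Cd68, C1qc and Lyz2, and higher were Ptprc (163.5 and 545.3) and C1qb, whose log2 ratio was 1.58 where brightest but -2.68 and 0.54 elsewhere. The split and the sum rest on the brightest probe set of each gene. Within 2-fold, Laptm5 was 0.50 there but -0.18 and -0.90 elsewhere, and Csf1r 0.44 but 0.13 and -0.88. No marker had both signals far below the floor, although Cd163 and Itgam lay near it, at 19.2 and 19.95 and at 19.8 and 20.5. The part of myeloid cells in the Apoe value was not tested.

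The 2 members that turn cholesterol into steroids, Star and Cyp11a1, were near or under the floor. Star, the protein that delivers cholesterol to the inner mitochondrial membrane, read 10.8 and 19.8, 12.8 and 14.8, and 0.358 and 0.804 at its 3 probe sets, of which 1 value alone passed the floor of 19.7, by a margin too small for a fold. With the floor at the 25th percentile the first of these gave a log2 ratio of 0.87, and with a pseudocount 0.66, so the Star value depends on how signals this low are treated. Cyp11a1, the enzyme that cuts the side chain of cholesterol, read 1.27 and 0.522, under the floor on both arrays. Stard4, a carrier of sterol between membranes inside the cell, had 76.7 and 77.6 (0.02) at the brighter probe set and 39.6 and 65.3 (0.72) at the other.

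**Figure D3:**
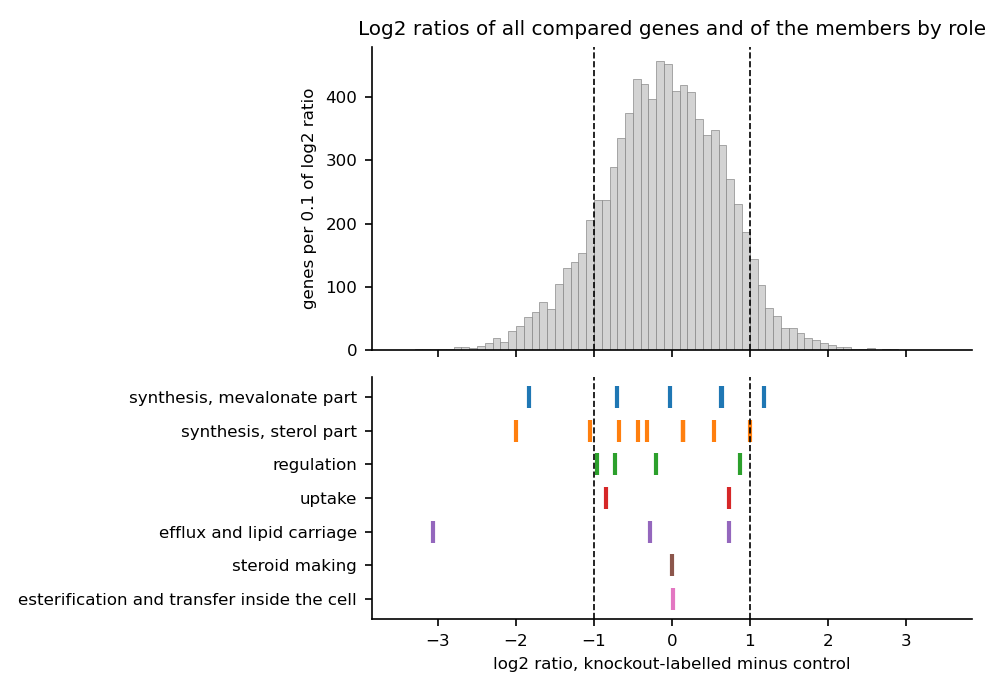
Upper panel, number of genes per 0.1 of log2 ratio (knockout-labelled minus control) over the 8593 compared genes. Lower panel, 1 tick per compared member in rows by role (nearly equal values overlap), with dashed lines at 2-fold in both panels. Most members lie inside the lines, with Apoe at -3.06 the farthest out.

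Across probe sets in place of genes, 5 of 42 were lower by 2-fold or more (11.9%) and 4 higher by as much (9.52%), where 13.9% and 6.84% of all 13284 compared probe sets were. The 4 higher ones belong to Hmgcs1, Idi1, Insig2 (all ending in _a_at) and Fdft1 (_x_at). Of the 27 member probe sets with the plain ending _at, 0 were 2-fold higher and 4 lower, those of Ebp, Fdps, Sc5d and Fdft1, where 6.89% and 13.7% of all plain ones were. Over all genes the median log2 ratio was -0.15 for plain probe sets, -0.24 for those in _a_at and 0.48 for those in _x_at. Of the 11 members with at least 2 compared probe sets, 3 differed in sign between them, namely Fdft1, Insig2 and Scarb1. Between the 2 brightest, 2 of 8 members with both measured differed in sign, where 44.2% of 2660 genes did.

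Of the 6 members past 2-fold, Apoe and Ebp were past it in every alternative that gave them a value, as the plot of these members by setting shows. Ebp stayed between -2.003 and -1.72 and Apoe between -3.06 and -2.79. Fdps was past 2-fold in 7 of 8, and with the floor raised to the 60th percentile it gave a bound of -0.08. Sc5d was past 2-fold in 3 of 8. Hmgcs1 was past it in 6 of 8, and was at 0.35 without probe sets ending in _s_at, _x_at or _a_at. Fdft1 turned to -1.18 without them.

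**Figure D4:**
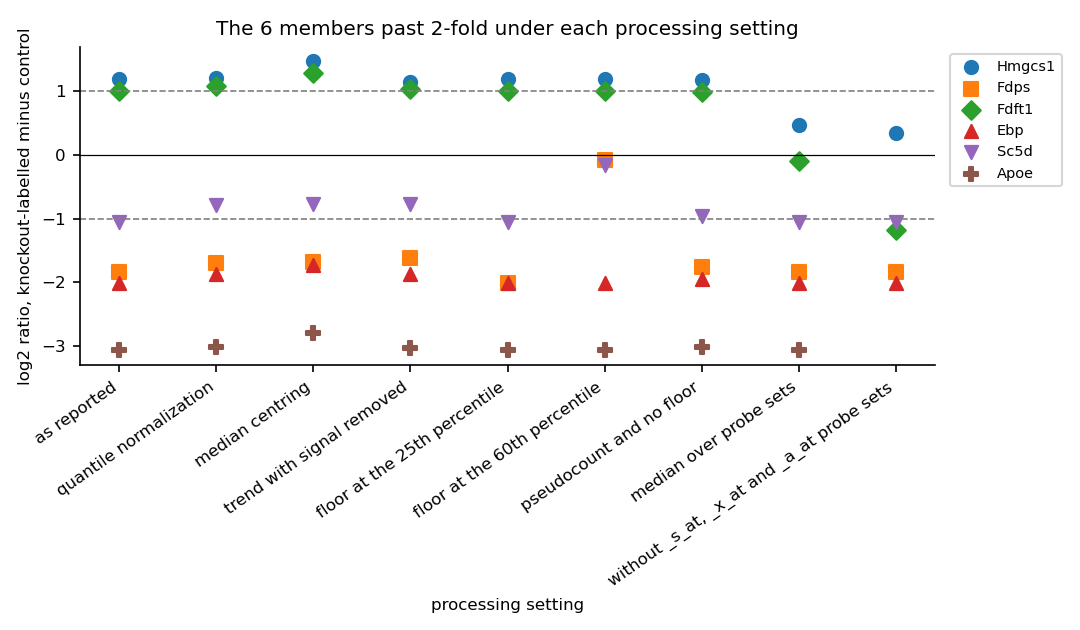
Log2 ratio (knockout-labelled minus control) of the 6 members past 2-fold under the reported processing and 8 alternatives, 1 symbol per gene, with dashed lines at 2-fold. Ebp stays below the lower line throughout and Fdft1 changes sign in the last columns. Apoe has no value without _a_at probe sets.

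Other genes of lipid metabolism, 97 in 9 lists, showed few members past 2-fold. Among 67 compared, 3 were higher by 2-fold or more (4.48%) and 5 lower by as much (7.46%), with a median log2 ratio of -0.07, and both shares lay under those of all genes. In the isoprenoid branches, 6 compared, Ggps1, which extends farnesyl to geranylgeranyl diphosphate, had 60.5 and 121.9 (1.009), with -0.35 or lower, 0.60 and -0.03 at others. Icmt, which methylates prenylated proteins, had 100.4 and 44.7 (-1.17). Of 4 genes that process SREBPs, none was past 2-fold, and the protease gene Mbtps1 (-0.39, and -0.81 at its other probe set) and the coat gene Sec23a (0.56) were the brightest.

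Fatty acid targets of SREBPs gave both directions, with 6 of 11 compared higher by any amount and a median of 0.11. Fads2, a fatty acid desaturase, had 154.7 and 73.5 (-1.07), with -0.25 at its other probe set, and none was 2-fold higher. Chosen after its values were seen, Acly, the enzyme that makes cytosolic acetyl-CoA, gave 0.77 at a probe set in _x_at and -1.01 and -1.58 at plain ones. Of 5 other lipoprotein receptors compared, Vldlr, the receptor for very-low-density lipoprotein, had 680.0 and 1395 (1.04), with 1.29, 0.32 and -0.10 at others. Of 5 genes of the liver X receptor, which raises efflux genes, Rxra, its partner, had 86.2 and 40.4 (-1.09), with a bound of -0.13 at its other probe set.

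Sterol transport inside the cell, 13 genes compared, had none past 2-fold (median -0.13), and its brightest were Npc2, a lysosomal carrier of cholesterol (2000.0 and 3352, 0.75, but -1.34 at its other probe set), and Cav1, the coat protein of caveolae (0.57). Of 7 further steroid-making genes and 4 of oxysterol making, none was past 2-fold, with Tspo (0.37, and -1.63 and 0.62 at others), Hsd17b12 (0.05, and -0.56), Cyp27a1 (-0.65) and Cyp7b1 (-0.28, and 0.57) the brightest. Among 12 apolipoprotein and lipid storage genes, 3 were higher and 9 lower by any amount (median -0.47). Apod, an apolipoprotein not related in sequence to Apoe, had 113.1 and 30.4 (-1.90), the triglyceride lipase gene Pnpla2 had 70.3 and 35.2, just past 2-fold lower, and Fabp5, a fatty acid binding protein, had 553.2 and 1172 (1.08, but -0.87 at its other probe set).

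The labelled cell type was checked on 15 stromal markers, all compared. Of these, 1 was at least 2-fold lower, Hoxa11 (389.2 and 107.7), which is 6.67%, where 13.0% of all genes were. None was higher by as much. Their summed signal was 32850 on the control and 44810 on the knockout-labelled array. The median log2 ratio of these markers was 0.06, with 9 higher and 6 lower by any amount, and the larger sum rests on bright genes such as Col3a1 (7439 and 10990) and Vim (4701 and 7436). Further probe sets went both ways, with -0.58 and 0.26 for Vim, -1.26 for Col1a1 and -1.70 for Pdgfra. They gave 0.15 for Col3a1, 0.01 for Col1a2, and 0.70 and 0.81 for Nr2f2, which was -0.54 where brightest. Esr1 and Hand2 lay near the floor. Other cells were present on both arrays. The summed signal of 14 epithelial markers was 2629 and 2133, and that of 10 endothelial markers 3452 and 2075, of which 5 were at least 2-fold lower, among them Pecam1 (139.3 and 27.5). Of 9 embryo and trophoblast markers, 6 were under the floor on both arrays. The part of these cells in the members' values was not tested.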

How the data were processed

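Total RNA (100 ng per pool) was extracted with Trizol, cleaned with RNeasy and labelled with the Affymetrix 3' Express kit, per the labels' protocols, and hybridised to 2 arrays, 1 per group. The deposited values are MAS5 signal intensities on a linear scale, 1 per probe set, made by the authors in Affymetrix Expression Console version 1, per the submitters' processing notes. The labels do not state the scaling target. Detection calls were not used.

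Probe sets were named by the platform annotation, with symbols updated by Entrez identifier to RefSeq (GRCm38.p6). Of 22626 probe sets that are not controls, 20380 had 1 symbol, 691 several and 1555 none, and only the first were used. Of these, 13284 probe sets, for 8593 genes, were above the floor on at least 1 array. Signals were floored, put on a log2 scale and counted at 2-fold. Alternatives were quantile normalization, median centring, a loess trend with a span of 0.4, floors at the 25th and 60th percentiles, a pseudocount of 4.7 without a floor, the median over probe sets, probe sets without the endings _s_at, _x_at and _a_at, and counts at 1.5-fold and 3-fold. The counting was tested on simulated data, with less noise than the SD between probe sets and with known folds in bright genes only. That test gives no error rate for these arrays or for dim genes. All members were named, and of each other pathway list up to 3 genes past 2-fold in each direction, or the 2 brightest where there were none. Members, lists and rules were chosen with earlier results of these data known. Python 3.11.15, pandas 2.3.3 and statsmodels 0.14.6 were used.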

Additional observations from a re-analysis of the deposited data

How the results depend on the processing

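With 1 array per group, precision is limited by their number and no replicate can be left out. The count of members at least 2-fold lower, 4, was 3 after quantile normalization, median centring or removal of the trend, with a pseudocount and at 3-fold. With the floor at the 60th percentile it was 2 of 20 compared, where 9.28% of all genes were lower. At 1.5-fold it was 9 of 27, where 26.4% of all genes were lower. Without _s_at, _x_at and _a_at probe sets it was 4 of 22, with Fdft1 among them and Apoe without a value. The count at least 2-fold higher, 2, was 5 after median centring (with Abca1, Scarb1 and Srebf1), 1 with a pseudocount, 0 with the median over probe sets, 0 without _s_at, _x_at and _a_at probe sets, 7 at 1.5-fold and 0 at 3-fold. Of all genes, 13.3% were at least 2-fold higher after median centring, and 18.5% were at least 1.5-fold higher as deposited. Hmgcs1 and Fdft1 therefore hold as 2-fold higher by probe sets that these alternatives drop or average. The median of the synthesis enzymes, 0.06, was 0.32 after quantile normalization, 0.34 after median centring, 0.30 with the trend removed, -0.019 with the floor at the 25th percentile, -0.017 with a pseudocount and -0.055 with the median over probe sets. That of all members, -0.02, turned to 0.093, 0.135 and 0.023 under the first 3 of these. Fdft1 (1.00) turned to -0.091 with the median over probe sets and to -1.18 without the 3 endings. The median of all genes, -0.10, moved to 0.03 after quantile normalization, 0.16 after median centring and -0.01 with the trend removed. The share of higher genes among all past 2-fold was 32.3% as deposited, 46.4% after quantile normalization, 63.1% after median centring and 43.7% with the trend removed. Of 204 values of single members under alternatives, 187 kept their side of 2-fold and moved by less than the SD between probe sets. Of the others, 9 were no longer past 2-fold (5 of them Sc5d) and 3 came past it. Another 3 moved by more than that SD (Star in 2 settings, Srebf2 in 1), and 2 changed sign by more than it (Fdft1). Smaller changes of sign lie within the 187. Pmvk (-0.02) was 0.27 after quantile normalization, and after median centring Insig2 (-0.20) was 0.08 and Abcg1 (-0.28) was 0.002.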
